A study of Mus musculus with 7 samples.

Results

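Expression of 10 genes of calcium-activated signalling was examined in mouse ventricle after pressure overload. They encode the 4 CaMKII isoforms (Camk2a, Camk2b, Camk2d and Camk2g), the calcineurin catalytic subunits Ppp3ca and Ppp3cb, the calcineurin regulators Rcan1 and Rcan2, and the transcription factors Nfatc3 and Nfatc4. The genes were taken by symbol from the 23847 rows of the deposited table, and each symbol occurred in 1 row. RNA came from ventricular lysate of male mice labelled 12 weeks of age. At 8 weeks they had undergone either trans-aortic banding (TAB, 3 libraries), in which a suture narrows the aorta so that the left ventricle pumps against a higher pressure, or the same surgery up to an untied suture (Sham, 4 libraries). The labels name neither strain nor genotype. They also do not tell whether libraries come from different animals, and p-values therefore reflect only how far these libraries scatter, which may be technical. Each library gave 1 FPKM value per gene, that is, fragments per kilobase of transcript scaled to the depth of the library. FPKM is corrected for length, so levels of different genes can be set side by side.

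CaMKII and calcineurin are the main enzymes through which calcium bound to calmodulin acts on cardiomyocyte growth. CaMKII is a serine/threonine kinase that phosphorylates channels, calcium-cycling proteins and class II histone deacetylases, which releases the transcription factor MEF2. Calcineurin is a phosphatase made of a catalytic and a calcium-binding regulatory subunit. It removes phosphates from NFAT factors, which then enter the nucleus and act with GATA4 and other partners on genes of the hypertrophied heart. RCAN proteins bind calcineurin and limit it, and Rcan1 is itself an NFAT target, so that its transcript is widely used as a readout of calcineurin activity in mouse heart.

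The low values of the table implied a depth of 10.8 to 12.2 M fragments per library. On the longest annotated coding transcript the 10 genes then rested on between 40 and 75 fragments per library for Nfatc4 and between 6177 and 7237 for Rcan2. All 10 passed the filter of at least 1 FPKM in at least 3 libraries, which left 11601 rows in the test. The ventricular light chain gene Myl2 was between 22000 and 26061 FPKM in every library. Sham 2 and TAB 3 stood apart by their atrial transcripts, since 6 atrial markers summed to 293 FPKM in Sham 2 and 312 in TAB 3 and to between 36.3 and 137 FPKM in the other 5 libraries. Results that change without this pair of libraries are given with and without them.

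Camk2a and Ppp3cb fell in the banded ventricles, and no other gene of the 10 passed the test. Rcan1 had the largest difference, with a mean of 81.2 FPKM in TAB against 38.6 in Sham, but the TAB libraries spread from 49.0 to 115.5 FPKM and its adjusted p of 0.0763 missed the threshold of 0.05, which it passed in 4 of 18 alternative settings. Camk2d, Rcan2 and Nfatc3, the highest of the CaMKII, RCAN and NFATc genes in every Sham library, had group means that differed by at most 6.6%. The 2 calls, both lower in TAB, are 20% of the 10 genes. Of all tested rows 20.3% were called, 13.3% higher and 7.05% lower in TAB (1542 and 818 rows, against 1038 and 1250 after rescaling by median-of-ratios size factors and 1045 and 1225 after quantile normalization). The share called among the 10 genes is therefore close to that of the whole table. The same 2 genes were called after either rescaling. The groups were separate in 3 of the 10 genes, Rcan1 with TAB above Sham and Camk2a and Ppp3cb with TAB below, and in 31.1% of all tested rows (19.9% with TAB above and 11.2% with TAB below).

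**Figure D1:**
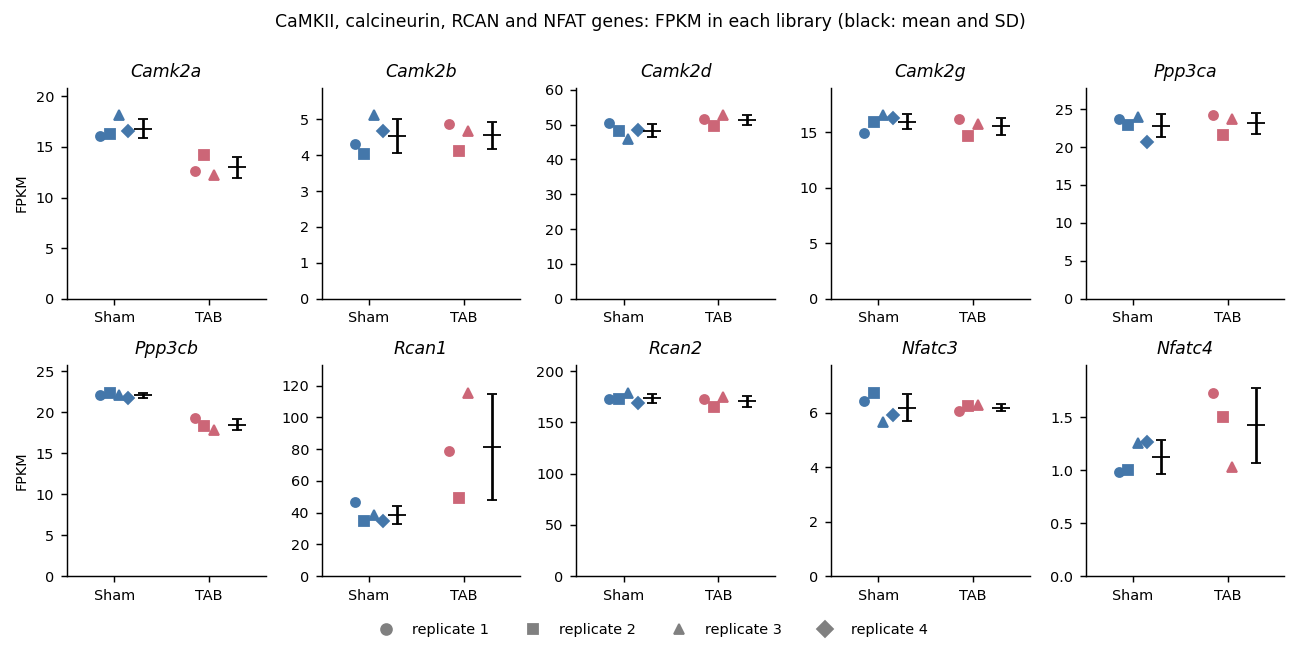
FPKM (linear axis from 0) of the 10 genes in each of the 4 Sham and 3 TAB libraries, with symbols for the replicate number and the group mean with its SD in black. The TAB points of Camk2a and Ppp3cb lie below every Sham point, and those of Rcan1 lie above every Sham point but range from 49.0 to 115.5 FPKM.

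Differences were tested with limma across all 11601 rows, and adjusted p-values are Benjamini-Hochberg over those rows. Log2 fold changes were taken on log2(FPKM + 1) as TAB minus Sham, and they understate changes of genes near 1 FPKM. Intervals are 95% limma intervals, not adjusted for the number of genes. An adjusted p above the threshold does not show that the groups were alike, and the interval gives the sizes left possible. Positions are on mm10, counted from 1.

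Camk2a (chr18:60925632-60988152) encodes the alpha isoform, known best from neurons, and in rodent muscle the gene also gives alphaKAP, an anchoring protein without a kinase domain. Gene-level FPKM does not separate these products. It was 16.1, 16.3, 18.1 and 16.6 FPKM across Sham 1 to 4 and 12.6, 14.2 and 12.2 across TAB 1 to 3. Every TAB library lay below every Sham library. The mean was 16.8 ± 0.930 FPKM in Sham (SD, n = 4) and 13.0 ± 1.04 in TAB (SD, n = 3), a level 22.5% lower in TAB. The log2 fold change was -0.35 ± 0.07 SE (interval -0.49 to -0.20, limma adjusted p = 0.00506). The call held under all 18 alternative settings, with adjusted p from 0.00298 to 0.039.

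Camk2d (chr3:126596973-126845054) encodes the delta isoform, the main CaMKII of cardiomyocytes. It was 50.4, 48.2, 45.8 and 48.4 FPKM across Sham 1 to 4 and 51.6, 49.7 and 52.8 across TAB 1 to 3. The highest Sham library exceeded the lowest TAB library. Its means were 48.2 ± 1.86 FPKM (SD, n = 4) and 51.4 ± 1.54 (SD, n = 3), a log2 fold change of 0.09 ± 0.05 SE (interval -0.01 to 0.19, limma adjusted p = 0.203). Camk2d makes splice forms that differ in their place in the cell, and the table does not resolve them.

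Camk2g (chr14:20734875-20794088), the gamma isoform also made in heart, was between 14.98 and 16.6 FPKM in Sham and between 14.7 and 16.2 in TAB. Camk2b (chr11:5969666-6065748), the beta isoform of brain and skeletal muscle, was between 4.04 and 5.12 FPKM in Sham and between 4.12 and 4.86 in TAB. For both genes the groups overlapped. The log2 fold changes were -0.04 ± 0.06 SE for Camk2g (interval -0.16 to 0.09, limma adjusted p = 0.71) and 0.0048 ± 0.08 SE for Camk2b (interval -0.18 to 0.19, adjusted p = 0.977).

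Within the CaMKII family the sum of the 4 genes was 85.5 ± 0.635 FPKM in Sham (SD, n = 4) and 84.5 ± 1.49 in TAB (SD, n = 3), with overlapping libraries. Camk2a made up 18.8%, 19.3%, 21.2% and 19.3% of that sum across Sham 1 to 4 and 14.8%, 17.2% and 14.3% across TAB 1 to 3. Camk2d made up 58.7%, 57.0%, 53.5% and 56.3% in Sham and 60.5%, 60.1% and 61.8% in TAB. The Camk2a share was lower and the Camk2d share higher in each TAB library than in any Sham library. The shares of Camk2b (4.77% to 5.98%) and Camk2g (17.5% to 19.3%) overlapped. Shares of a sum move against each other and are given here as description, with no test of whether Camk2a and Camk2d differ in their response.

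Ppp3cb (chr14:20499314-20546573) encodes the beta catalytic subunit of calcineurin, the one whose loss in mice blunts hypertrophy after aortic banding. It was 22.1, 22.4, 22.1 and 21.7 FPKM across Sham 1 to 4 and 19.3, 18.4 and 17.9 across TAB 1 to 3. The Sham libraries lay within 1 FPKM of each other and above all TAB libraries. The means were 22.1 ± 0.287 FPKM (SD, n = 4) and 18.5 ± 0.697 (SD, n = 3), a level 16.2% lower in TAB. Its log2 fold change was -0.24 ± 0.05 SE (interval -0.35 to -0.14, limma adjusted p = 0.00645). The call was lost in 1 of 18 alternatives, the fit without both Sham 2 and TAB 3 (log2 fold change -0.22, adjusted p = 0.0619).

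Ppp3ca (chr3:136670770-136935779), the alpha catalytic subunit, was 23.7, 22.9, 24.0 and 20.7 FPKM across Sham 1 to 4 and 24.2, 21.5 and 23.6 across TAB 1 to 3. The groups overlapped, with means of 22.8 ± 1.49 FPKM (SD, n = 4) and 23.1 ± 1.42 (SD, n = 3). The log2 fold change was 0.02 ± 0.06 SE (interval -0.12 to 0.16, limma adjusted p = 0.876). In Sham the levels of Ppp3ca and Ppp3cb overlapped, with a ratio of Ppp3ca to Ppp3cb between 0.954 and 1.08. In TAB that ratio was 1.26, 1.17 and 1.32 in libraries 1 to 3, above all Sham libraries.

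The third catalytic gene, Ppp3cc, known as the testis form, was measured at a similar level. It was 17.1 ± 1.01 FPKM in Sham (SD, n = 4) and 19.0 ± 0.713 in TAB (SD, n = 3), with no overlap between the libraries and a log2 fold change of 0.15 ± 0.06 SE (limma adjusted p = 0.102). Its share of the summed catalytic FPKM was 27.5% in Sham and 31.4% in TAB, that of Ppp3cb 35.7% and 30.5%, and that of Ppp3ca 36.8% and 38.1%. The sum itself was 62.0 ± 1.48 FPKM in Sham (SD, n = 4) and 60.7 ± 1.71 in TAB (SD, n = 3), with overlapping libraries. Ppp3r1, the regulatory subunit, was 31.6 ± 0.876 and 29.7 ± 0.663 FPKM (log2 fold change -0.08 ± 0.05 SE, limma adjusted p = 0.228). Its TAB libraries all lay below its Sham libraries. Such separation, in either direction, occurred in 31.1% of all tested rows. The testis regulatory gene Ppp3r2 was listed at 0 in every library. Exons of Ppp3r1 overlap those of Wdr92 on the same strand in GENCODE M21, so its value is less certain.

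**Figure D2:**
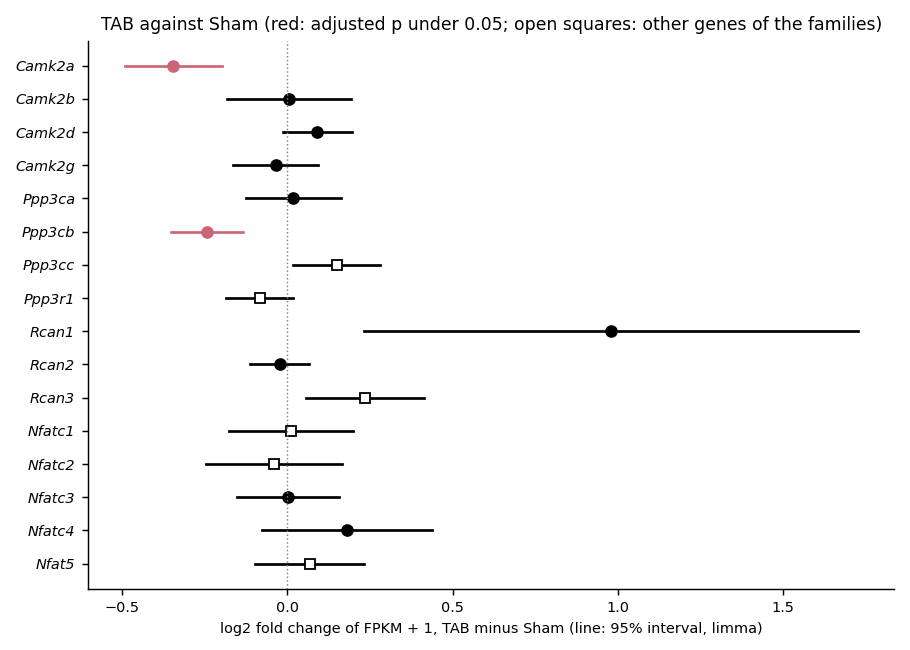
Log2 fold change of FPKM + 1, TAB minus Sham, for the 10 genes (filled circles) and the other tested genes of their families (open squares), with 95% limma intervals as lines and calls in red. Camk2a (-0.35) and Ppp3cb (-0.24) are called, and Rcan1 (0.98) has the widest interval, from 0.23 to 1.73.

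Rcan1 (chr16:92391953-92466146, minus strand), the stress-inducible calcineurin inhibitor, was 46.6, 34.9, 38.3 and 34.8 FPKM across Sham 1 to 4. Across TAB 1 to 3 it was 79.1, 49.0 and 115.5 FPKM. All TAB libraries lay above all Sham libraries, but TAB 2 was close to the highest Sham library, Sham 1. The means were 38.6 ± 5.52 FPKM (SD, n = 4) and 81.2 ± 33.3 (SD, n = 3), a ratio of 2.10. The log2 fold change was 0.98 ± 0.30 SE (interval 0.23 to 1.73), and the limma adjusted p of 0.0763 (unadjusted 0.0191) did not pass.

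The verdict on Rcan1 turned on the settings and on 1 library. It passed in 4 of 18 alternatives: without a filter (adjusted p = 0.0468), with eBayes run without trend and robust (0.0281), with array weights (0.0455) and without TAB 2 (0.00607, log2 fold change 1.30). Without TAB 3 the log2 fold change was 0.69 (adjusted p = 0.106), and without both Sham 2 and TAB 3 it was 0.64 (0.207). With the atrial level as a covariate it was 0.99 (0.069). The sign was positive in all 18 alternatives. Among the TAB libraries TAB 3 had the highest Rcan1 and the highest sum of atrial markers, and Sham 2, with the highest sum among the Sham libraries, had 34.9 FPKM of Rcan1. The part of atrial transcripts in the difference was not tested beyond these fits.

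**Figure D3:**
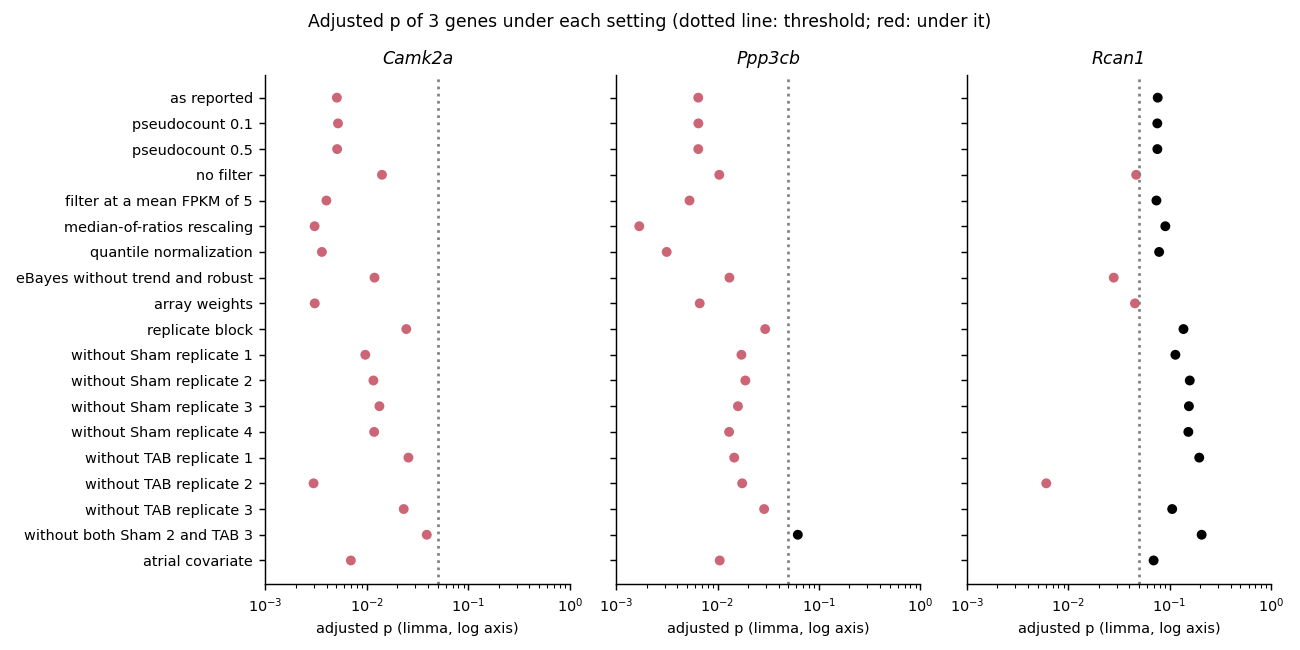
Limma adjusted p (log axis) of Camk2a, Ppp3cb and Rcan1 in the fit as reported and under each of 18 alternative settings, with the threshold of 0.05 as a dotted line and passing values in red. Camk2a stays under the threshold throughout, Ppp3cb crosses it in 1 setting (0.0619), and Rcan1 passes in 4 settings.

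GENCODE M21 lists several starts for mouse Rcan1. RefSeq windows were at hand for an outer and an inner one, the latter in front of a later first exon. The inner one gives the shorter isoform, which is known to be induced through NFAT in cardiomyocytes. Gene-level FPKM sums over all starts. The sequences upstream of these starts are shown because NFAT is known to act at the inner one. They are RefSeq windows on GRCm38.p6, minus strand, 5′ to 3′, each the 250 bases before the annotated start, at chr16:92466170-92466419 for the outer and chr16:92400079-92400328 for the inner start. Capitals mark the NFAT core GGAAA or its reverse complement TTTCC.
Rcan1 outer start: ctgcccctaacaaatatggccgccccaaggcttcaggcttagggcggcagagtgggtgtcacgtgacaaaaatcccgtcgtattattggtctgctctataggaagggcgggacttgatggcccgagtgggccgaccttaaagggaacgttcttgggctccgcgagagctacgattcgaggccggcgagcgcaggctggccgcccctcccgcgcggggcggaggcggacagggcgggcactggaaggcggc
Rcan1 inner start: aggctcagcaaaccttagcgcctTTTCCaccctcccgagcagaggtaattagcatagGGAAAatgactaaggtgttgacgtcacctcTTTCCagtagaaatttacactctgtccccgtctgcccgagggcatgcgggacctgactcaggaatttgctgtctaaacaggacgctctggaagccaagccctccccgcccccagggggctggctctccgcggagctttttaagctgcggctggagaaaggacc

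The inner window held 3 matches to GGAAA on either strand, at 223 to 227, 189 to 193 and 159 to 163 bases before the start, and the outer window held 0. At least 3 matches occurred in 6.39% of the 32851 RefSeq windows of this length, and at least 1 in 55.6%. The inner window also held 1 match to the AP-1 motif TGANTCA, read on both strands and apart from the NFAT cores, which 6.75% of all windows contained. RefSeq windows were read for 7 of the 10 genes. Windows on chromosome 18, which holds Camk2a, were left out for the 10 genes, so Camk2a was not searched. Camk2g and Ppp3ca had no window in the search either. The windows of Ppp3cb and Nfatc4 held 3 GGAAA matches as well. Of the windows of Rcan2, 1 held 2 GGAAA matches and another held 1 match to the AP-1 motif. The matches are descriptions of the letters in these windows.

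Rcan2 (chr17:43801851-44039516), the RCAN gene under thyroid hormone control, had the highest level of the 10 genes. It was 172.6, 172.9, 179 and 169 FPKM across Sham 1 to 4 and 172.7, 165 and 175 across TAB 1 to 3. The groups overlapped, with means of 173 ± 4.12 FPKM (SD, n = 4) and 171 ± 5.33 (SD, n = 3). Its log2 fold change was -0.02 ± 0.04 SE (interval -0.11 to 0.07, limma adjusted p = 0.741). Rcan3 was 2.39 ± 0.168 FPKM in Sham (SD, n = 4) and 3.00 ± 0.289 in TAB (SD, n = 3), without overlap (log2 fold change 0.23 ± 0.08 SE, limma adjusted p = 0.0647).

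Rcan1 made up 21.0%, 16.6%, 17.4% and 16.9% of the summed RCAN FPKM across Sham 1 to 4 and 31.1%, 22.6% and 39.4% across TAB 1 to 3. The share was higher in each TAB library than in any Sham library. The RCAN sum itself was 214 ± 7.32 FPKM in Sham and 255 ± 38.0 in TAB (SD), and its libraries overlapped, with 221 FPKM in Sham 1 and 217 in TAB 2. Summed RCAN transcripts per summed calcineurin catalytic transcripts came to a ratio of 3.55, 3.31, 3.53 and 3.44 across Sham 1 to 4 and 4.11, 3.70 and 4.78 across TAB 1 to 3. That ratio did not overlap between the groups. It compares transcript levels and not proteins.

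**Figure D4:**
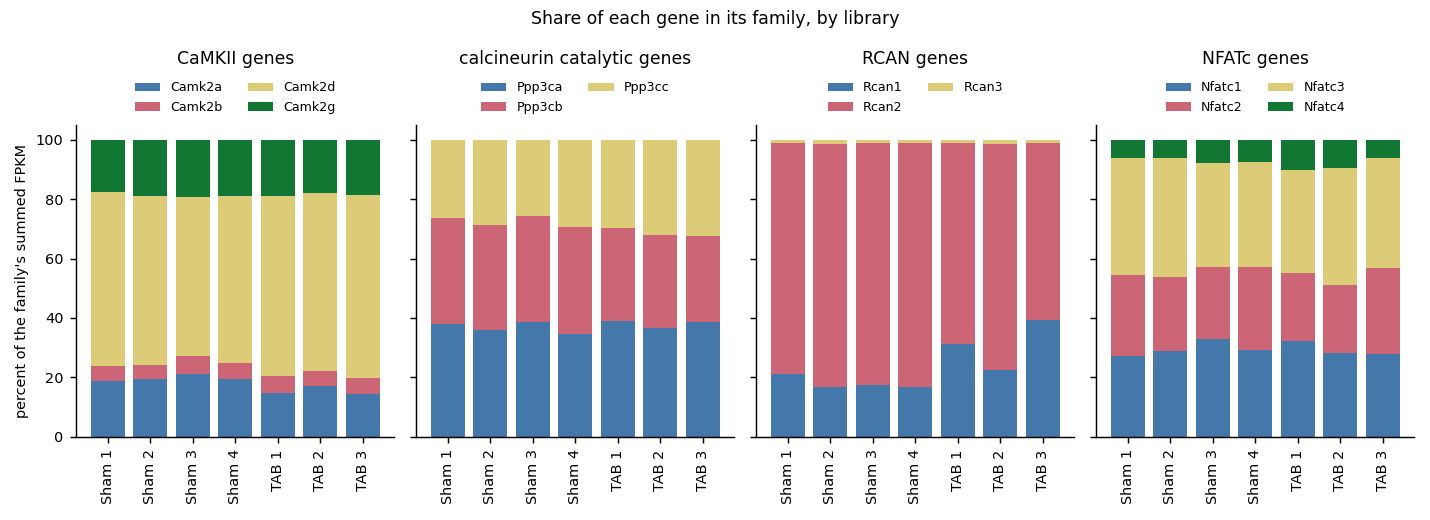
Percent of each family's summed FPKM contributed by each gene, as stacked bars for the 7 libraries, with 1 panel each for CaMKII, calcineurin catalytic, RCAN and NFATc genes. Rcan1 takes 16.6% to 21.0% of the RCAN sum in Sham and 22.6% to 39.4% in TAB, and Ppp3cb takes 35.3% to 36.2% of the catalytic sum in Sham and 29.2% to 31.3% in TAB.

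Nfatc3 (chr8:106059603-106130537), an NFAT factor whose loss in mice reduces hypertrophy after banding, was 6.44, 6.75, 5.67 and 5.91 FPKM across Sham 1 to 4 and 6.06, 6.24 and 6.28 across TAB 1 to 3. All TAB libraries lay inside the Sham range. Its means were 6.19 ± 0.491 FPKM (SD, n = 4) and 6.19 ± 0.117 (SD, n = 3), a log2 fold change of 0.0029 ± 0.07 SE (interval -0.15 to 0.16, limma adjusted p = 0.984). Nfatc4 (chr14:55824795-55833943), the factor first tied to GATA4 in heart, was 0.981, 1.00, 1.26 and 1.27 FPKM across Sham 1 to 4. Across TAB 1 to 3 it was 1.73, 1.51 and 1.03 FPKM, so that TAB 1 and TAB 2 exceeded all Sham libraries and TAB 3 did not. The log2 fold change of Nfatc4 was 0.18 ± 0.12 SE (interval -0.08 to 0.44, limma adjusted p = 0.308), at a level where few fragments were counted.

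The other NFAT genes were measured at like levels. Nfatc1 was 4.87 ± 0.374 and 4.93 ± 0.597 FPKM, Nfatc2 4.33 ± 0.351 and 4.20 ± 0.661, and the tonicity-regulated Nfat5 6.37 ± 0.573 and 6.72 ± 0.310 in Sham (n = 4) and TAB (n = 3). None of them passed the limma test (adjusted p = 0.944, 0.795 and 0.571), and their libraries overlapped. Nfatc3 was the largest of the 4 NFATc genes, with 37.5% ± 2.75 of their sum in Sham and 37.0% ± 2.19 in TAB (SD). NFAT activity is set by phosphorylation and place in the cell, which RNA levels do not report.

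In Sham the order of the 10 levels was Rcan2, Camk2d, Rcan1, Ppp3ca, Ppp3cb, Camk2a, Camk2g, Nfatc3, Camk2b and Nfatc4. Libraries overlapped between Camk2d and Rcan1, between Ppp3ca and Ppp3cb and between Camk2a and Camk2g, and not between the other neighbours. In TAB Rcan1 stood second, overlapping Camk2d, and Camk2g stood above Camk2a without overlap.

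Markers of cell types moved beside these results. For comparison, 13.3% of all tested rows were called higher and 7.05% lower in TAB. The marker lists were chosen with earlier results of these data known. Of 10 cardiomyocyte markers 5 fell, 0 rose and 5 were not called, and their summed level was 66024 to 72011 FPKM in Sham and 64166 to 71701 in TAB. Of 9 fibroblast markers 6 rose, 0 fell and 3 were not called (summed level 449 to 513 FPKM in Sham and 557 to 715 in TAB). Endothelial markers rose in 4 of 8 (225 to 255 and 267 to 300 FPKM), smooth muscle and pericyte markers in 5 of 8 (242 to 251 and 272 to 308 FPKM), macrophage markers in 2 of 7 tested (194 to 218 and 213 to 270 FPKM), and 0 of these fell. After quantile normalization 3 cardiomyocyte markers fell and 1 rose. Without both Sham 2 and TAB 3, 4 cardiomyocyte markers fell, and 5 fibroblast and 3 endothelial markers rose. Without TAB 1 the endothelial list had 2 higher and 1 lower, and macrophage markers were called in 0 without TAB 1 and in 5 without TAB 2. Their part in the falls of Camk2a and Ppp3cb was not tested, and in bulk tissue fewer cells of a type cannot be told apart from less RNA per cell.

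Camk2a and Camk2b are also genes of neurons and skeletal muscle, so those markers were read in the same libraries. Of 12 neuron and Schwann cell markers 2 passed the filter. Snap25 and Th were at 0 in every library, while the neuronal marker Stmn2 was between 2.73 and 4.19 FPKM, Dbh between 0.559 and 1.07 and Tubb3 between 0.555 and 1.83. The list summed to 7.31 to 8.27 FPKM in Sham and 7.67 to 8.69 in TAB. Of 10 skeletal muscle markers 2 passed the filter and neither was called, and the 10 summed to 4.11 to 14.6 FPKM in Sham, highest in Sham 4, and to 2.71 to 5.15 in TAB. The part of these cell types in the levels of Camk2a and Camk2b was not tested. All 9 lymphocyte markers were under the filter, with a highest value of 1.47 FPKM.

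Upstream of the 10 genes, the calmodulin gene Calm2 rose after banding. Of 20 calmodulin and calmodulin-dependent kinase genes 11 were tested, of which 2 rose, 3 fell and 6 were not called. The calls were 45.5% of those tested, beside 20.3% of all tested rows. The list was chosen with earlier results of these data known, so this share is no independent evidence. The median log2 fold change was -0.03 beside 0.05 over all tested rows. Calm2 was 88.2 ± 4.46 FPKM in Sham (SD, n = 4) and 102 ± 2.90 in TAB (SD, n = 3), with a limma adjusted p of 0.015. Calm2 lost its call without TAB 1 (adjusted p = 0.053) and under median-of-ratios rescaling (0.061). Calm3 was 69.3 ± 2.81 and 68.1 ± 1.30 FPKM (adjusted p = 0.733).

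The 3 that fell are calmodulin-regulated kinases other than CaMKII. Phkg1, the catalytic subunit of phosphorylase kinase, went from 13.4 ± 1.66 to 6.66 ± 1.26 FPKM (limma adjusted p = 0.000892). Mylk3, the cardiac myosin light chain kinase, went from 208 ± 8.58 to 181 ± 6.97 FPKM (adjusted p = 0.0136), and Dapk1, a death-associated kinase, from 10.1 ± 0.345 to 8.51 ± 0.345 (0.0205). Mylk3 lost its call without TAB 1 (0.0597) or TAB 3 (0.0549), and Dapk1 without Sham 1, TAB 2 or TAB 3 (0.0547, 0.0512 and 0.0749). Without both Sham 2 and TAB 3 neither passed (0.104 and 0.102). Dapk1 also did not pass with the replicate number as a block (limma adjusted p = 0.0593). The endogenous CaMKII inhibitor Camk2n1 was 5.85 ± 0.975 and 5.66 ± 0.458 FPKM (adjusted p = 0.862).

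Most of the calls among genes whose products are reported CaMKII substrates in heart were lower. Of 16, all tested, 8 fell, 1 rose and 7 were not called (median log2 fold change -0.19). The calls were 56.25% of the list, beside 20.3% of all tested rows (13.3% higher and 7.05% lower). The list was chosen with earlier results of these data known, so this share is no independent evidence. Atp2a2, which encodes the SERCA calcium pump, went from 4290 ± 226 to 3077 ± 146 FPKM (limma adjusted p = 0.000219), its inhibitor Pln from 3370 ± 56.8 to 2827 ± 151 (0.0023), the release channel Ryr2 from 163 ± 11.5 to 127 ± 7.24 (0.00241) and Kcnj2, an inward-rectifier channel, from 13.9 ± 0.576 to 9.63 ± 1.06 (0.00129). The thick filament gene Mybpc3 rose from 1181 ± 47.3 to 1510 ± 90.6 FPKM (0.000902). Pln and Ryr2 are also among the cardiomyocyte markers above, and Pln lost its call under quantile normalization (0.0875).

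On the MEF2 branch, Mef2a fell from 33.7 ± 2.64 to 26.0 ± 3.51 FPKM (limma adjusted p = 0.0147) and the deacetylase gene Hdac9 from 6.15 ± 0.897 to 4.57 ± 0.440 (0.0313). Mef2a lost its call without TAB 2 (0.0512) or TAB 3 (0.0572), and Hdac9 without Sham 1, Sham 2, TAB 1 or TAB 2 (0.0738 to 0.0987). Hdac9 also lost its call without a filter (0.0681) and with the replicate number as a block (0.0667). Hdac4, the class II deacetylase that CaMKII binds directly, was 4.02 ± 0.380 and 3.74 ± 0.557 FPKM (adjusted p = 0.569), Hdac5 21.6 ± 0.919 and 19.4 ± 0.416 (0.0625) and Mef2c 10.7 ± 0.789 and 10.7 ± 0.737 (0.984). The potassium channel gene Kcnd3 and the calcium channel gene Cacna1c were the other 2 that fell, by 0.30 ± 0.07 and 0.23 ± 0.06 SE on the log2 scale (limma adjusted p = 0.0146 and 0.02). Cacna1c lost its call without TAB 2 (0.06) or TAB 3 (0.0769), and with the replicate number as a block (0.0629). Without TAB 2 the count of substrates that fell was 5, and without both Sham 2 and TAB 3 it was 4, with Mef2a, Hdac9, Kcnd3 and Cacna1c not passing (adjusted p = 0.114, 0.0658, 0.0613 and 0.0523).

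Around calcineurin and NFAT, 42 further genes were listed and 35 tested, of which 7 rose, 2 fell and 26 were not called (median log2 fold change 0.02). The calls were 25.7% of those tested, near the 20.3% of all tested rows (13.3% higher and 7.05% lower). The genes below are therefore described singly and not as a result about the pathway. Myoz2, or calsarcin, a Z-disc protein that tethers and restrains calcineurin in mouse heart, went from 1010 ± 36.4 FPKM (SD, n = 4) to 1273 ± 51.9 (SD, n = 3) with a limma adjusted p of 0.000697. Cib1, which anchors calcineurin at the cell membrane, went from 8.98 ± 1.31 to 12.7 ± 1.31 FPKM (adjusted p = 0.0125). The nuclear import gene Kpna2 rose by 0.30 ± 0.07 SE on the log2 scale (0.011) and Ywhaz, a 14-3-3 protein, by 0.22 ± 0.05 (0.0141). Fkbp1a and Ppia, which encode the proteins through which tacrolimus and cyclosporin block calcineurin, and the kinase Csnk1d were called too (adjusted p = 0.0177, 0.0403 and 0.0426).

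Of the 7 calls, 6 were lost in at least 1 alternative. Cib1 and Kpna2 lost theirs without TAB 1 (limma adjusted p = 0.0513 and 0.0542). Fkbp1a lost its call without TAB 2 (0.0582), after median-of-ratios rescaling (0.0946) and with eBayes run without trend and robust (0.0508). Ywhaz lost its call after median-of-ratios rescaling (0.0624), and Ppia and Csnk1d in 11 and 14 of 18 alternatives (up to 0.159 and 0.156). Ppia has many processed copies in the genome that can share reads. The count of higher genes was 3 without TAB 1, 3 without both Sham 2 and TAB 3 and 3 after median-of-ratios rescaling. Cib1 and Ywhaz were among those not passing without both Sham 2 and TAB 3 (0.0631 and 0.0551). Myoz2 kept its call in all 18 alternatives.

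The 2 that fell were Mapk14, the p38 alpha kinase, from 28.7 ± 0.987 to 21.6 ± 1.02 FPKM (limma adjusted p = 0.000778), and the mitochondrial anchoring protein Akap1 from 46.3 ± 1.25 to 40.4 ± 2.02 (0.0174, and 0.0566 without TAB 2). Mapk14 kept its call in all 18 alternatives. Among the kinases that phosphorylate NFAT, which also include the called Csnk1d and Mapk14, the GSK3 genes and Dyrk1a were not called, with Gsk3b at 9.63 ± 0.318 and 9.80 ± 0.766 FPKM, Gsk3a at 23.7 ± 0.618 and 23.8 ± 1.77 and Dyrk1a at 13.1 ± 0.452 and 13.3 ± 0.324 (adjusted p = 0.858, 0.987 and 0.762). The partner factor Gata4 was 29.99 ± 1.21 and 30.7 ± 1.42 FPKM (0.716).

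**Figure D5:**
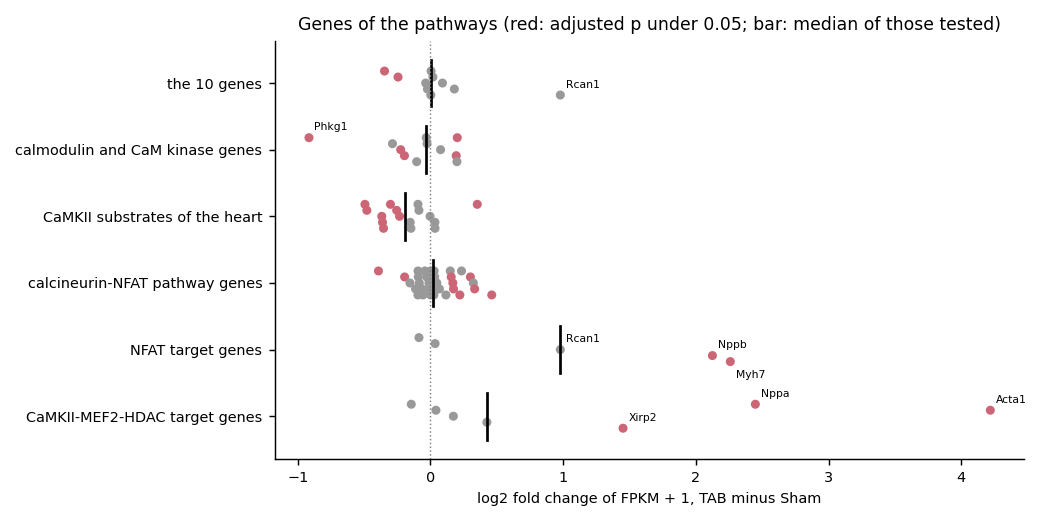
Log2 fold change of FPKM + 1, TAB minus Sham, of each tested gene in the 10 genes and 5 pathway lists, with called genes in red and the median of each list as a black bar. Calls among the CaMKII substrates lie mostly below 0 (8 lower, 1 higher), and the target lists reach up to Acta1 at 4.22.

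Downstream, known target genes were read in the same libraries. Of 9 listed NFAT target genes with a row, 5 were tested, and Nppb (B-type natriuretic peptide) and Myh7 (slow myosin heavy chain) rose while 0 fell and 3 were not called, Rcan1 being one. Nppb was 171, 137, 82.1 and 135 FPKM across Sham 1 to 4 and 569, 391 and 775 across TAB 1 to 3 (limma adjusted p = 0.0126, against 0.0525 without TAB 1 and 0.093 without both Sham 2 and TAB 3). Myh7 was 62.2, 67.5, 63.1 and 80.9 in Sham and 277, 239 and 541 in TAB (adjusted p = 0.00675). With the replicate number as a block neither Nppb nor Myh7 passed (limma adjusted p = 0.146 and 0.0635). The target genes Ednra and Adssl1 were 13.9 ± 1.97 and 13.0 ± 0.781 FPKM (0.592) and 82.5 ± 2.44 and 84.5 ± 0.267 FPKM (0.59). The calls were 40% of those tested, beside 20.3% of all tested rows. The list was chosen with the rise of Nppb and Myh7 in these libraries known and is no independent evidence of its direction.

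Of 8 genes reported to respond to CaMKII, MEF2 or class II deacetylases, 7 were tested, of which 3 rose (Acta1, Nppa and Xirp2), 0 fell and 4 were not called. Xirp2, a MEF2 target of the intercalated disc and Z-disc, was 87.6, 80.9, 83.4 and 88.6 FPKM across Sham 1 to 4 and 238, 166 and 324.99 across TAB 1 to 3 (limma adjusted p = 0.00755). Acta1 was 134 ± 23.3 and 2512 ± 422 FPKM (adjusted p = 5.97e-05). Nppa was 251 ± 141 and 1350 ± 725 FPKM (0.0339), a call lost without any single library other than Sham 2 (0.0652 to 0.0871). With the replicate number as a block Nppa did not pass either (limma adjusted p = 0.24). The calls were 42.9% of those tested, beside 20.3% of all tested rows. This list, too, was chosen with those rises known.

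The 3 TAB libraries kept 1 order in several of these genes. TAB 3 was highest and TAB 2 lowest in Rcan1, Nppb, Myh7 and Xirp2, whereas Acta1 was highest in TAB 1 (2951 FPKM) and lower in TAB 3 (2474) and TAB 2 (2110). The sum of the atrial markers had TAB 3 highest and TAB 2 lowest too, with 80.9, 36.3 and 312 FPKM across TAB 1 to 3. Nppa did as well (947, 917 and 2187 FPKM). The labels give no measure of how tight the band was for any library. What lies behind the shared order was not tested.

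For Camk2a, Ppp3cb and Rcan1, which had the smallest adjusted p of the 10, the tested genes with the most similar profile were sought. Likeness was the mean absolute difference over the 7 libraries between log2(FPKM + 1) values, each gene centred on its own Sham mean. Closest to Camk2a were Tmem82 (0.021), Fam174b (0.0282) and Tmem63b (0.0284), and closest to Ppp3cb were Rab12 (0.0166), Klhl23 (0.0174) and Idh3a (0.0212). Idh3a, a subunit of mitochondrial isocitrate dehydrogenase, was 310 ± 2.11 FPKM in Sham (SD, n = 4) and 257 ± 7.63 in TAB (SD, n = 3).

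Among the closest to Rcan1 were Tgfb2 (0.135) and Hbegf (0.152), at a greater distance than the neighbours of Camk2a and Ppp3cb. Tgfb2, a growth factor of the TGF-beta family, was 1.77, 1.92, 1.78 and 1.63 FPKM across Sham 1 to 4 and 4.16, 2.80 and 6.37 across TAB 1 to 3. Hbegf, a heparin-binding ligand of the EGF receptor, was 9.74, 8.91, 8.81 and 9.13 FPKM in Sham and 16.7, 10.5 and 24.9 in TAB. Both were highest in TAB 3 and lowest, among the TAB libraries, in TAB 2, as Rcan1 was. They were picked for likeness to Rcan1 over these same libraries, so the shared order follows largely from the choice. Tgfb2 was called (limma adjusted p = 0.00885). Hbegf was not (0.0826), but it passed in 4 of 18 alternatives, among them the fit without TAB 2 (0.000961).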

How the data were processed

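Polyadenylated RNA of 7 ventricular libraries was sequenced as stranded libraries, per the labels' protocols. The authors deposited FPKM values per gene. The submitters' processing notes name TopHat, Cufflinks and the build mm10. Not given in the sources used here are versions, parameters, the annotation, strand-aware counting and a scaling across libraries. Columns were matched to samples by the column name in each sample's description, and 0 value columns were left unused. Groups and replicate numbers come from the titles.

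Values were transformed to log2(FPKM + 1). Rows with at least 1 FPKM in at least 3 libraries entered a two-sided limma test (limma 3.58.1, R 4.3.3, eBayes with trend and robust) on all 7 libraries without covariates. P-values were Benjamini-Hochberg adjusted with a threshold of 0.05. The fit was tested on simulated data. Depth was estimated as the fragment number at which most low values came within 5% of whole fragments, over genes whose single GENCODE M21 transcript spans 3000 to 6000 bp. Between 63.7% and 71.4% of 67 to 80 low values per library did so. Counts could not be recovered, so no count model was run.

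The 10 genes and all lists were chosen with earlier results of these data known. Pathway lists name called genes, with at most 4 per direction described by smallest adjusted p. Genes compared though not called, and the promoter motifs, were picked for their known role after values were seen. Older symbols were matched through RefSeq synonyms. Promoter windows are from RefSeq, GRCm38.p6. Alternatives were other pseudocounts, filters, scalings and eBayes settings, array weights, a replicate block, a covariate for atrial transcripts (Sln, Myl7, Myl4) and libraries left out. Some genes that the naming rules select are not reported here.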

Additional observations from a re-analysis of the deposited data

Results flagged for a closer look

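The share of Rcan2 in the summed RCAN FPKM of the Sham libraries was 78.0% in Sham 1 and 81.5% to 82.1% in Sham 2 to 4. The gap between Sham 1 and its nearest neighbour made up 0.843 of the whole range, above Dixon's 95% critical value for 4 samples. The share is low in Sham 1 where Rcan1 is high (46.6 FPKM against 34.8 to 38.3), while Rcan2 itself was 172.6 FPKM, inside the range of the other Sham libraries. This was 1 of 24 sets of 4 Sham values examined, and chance flags about 1 in 20.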

How the results depend on the processing

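Of 664 comparisons of a result with its value under an alternative, 593 stayed near the value reported. Near means the same sign and verdict for a gene, a move under the spread for a share or a list median, whose sign could turn, and a similar count for a number of calls. All isoform shares were among them. The share differences of Camk2b, Camk2g, Rcan3, Nfatc1 and Nfatc3 crossed 0 on leaving out single libraries. The sign of a gene's log2 fold change turned in 22, all in Camk2b, Camk2g, Ppp3ca, Rcan2 and Nfatc3, none of which was called in any alternative. The log2 fold change of Camk2b was -0.044 after median-of-ratios rescaling, -0.0673 after quantile normalization and -0.0573 without both Sham 2 and TAB 3. For Ppp3ca it was -0.0384 and -0.0097 after these scalings and -0.0257 with the replicate block. For Nfatc3 it was -0.0479 and -0.0607, -0.0103 with array weights and -0.0157 with the block. The cause was not tested.

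Without both Sham 2 and TAB 3, which leaves 5 libraries, 1353 rows were called (951 higher, 402 lower), and of the 10 genes 1 was called lower, Ppp3cb (-0.2151) not passing. After median-of-ratios rescaling 1250 rows were lower. Of the 10 genes 1, Rcan1, was higher without a filter (0.9787), with eBayes without trend and robust (0.9787) and with array weights (1.0286). Leaving out single libraries gave 1440 to 2080 rows called, 860 to 1364 higher, with both lowest counts without TAB 1, and 0 to 1 of the 10 genes higher. The ranges of the log2 fold change were -0.0399 to 0.0619 for Camk2b, -0.0641 to 0.0006 for Camk2g, -0.0257 to 0.0672 for Ppp3ca, 0.6853 to 1.2953 for Rcan1, -0.0397 to 0.0029 for Rcan2 and -0.0325 to 0.0394 for Nfatc3.

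Among calmodulin and CaM kinase genes 1 was higher and 5 lower after median-of-ratios rescaling, and 1 higher and 1 lower without both Sham 2 and TAB 3. Their median was 0.01 without a filter, -0.1036 with a filter at a mean of 5 FPKM, -0.0841 and -0.0938 after the scalings, -0.0602 with array weights, -0.0577 with the block and -0.0612 without both libraries. Single libraries left out gave 1 to 2 higher, 1 to 3 lower (1 without TAB 3) and medians of -0.0818 to -0.0355. Of the CaMKII substrates 4 were lower without both libraries and 5 to 8 without single ones, and the median was -0.2497 after median-of-ratios rescaling. Of the calcineurin-NFAT genes 3 were higher and 4 lower after median-of-ratios rescaling, 4 lower after quantile normalization and 3 higher without both libraries. Their medians were -0.0337, -0.0406 and 0.0634, and single libraries left out gave 3 to 6 higher, 1 to 2 lower and medians of -0.0027 to 0.0446. Of the NFAT targets 0 were higher with the block, 1 without both libraries and 1 to 3 without single ones, and the median was 0.0419 without a filter. The median of the CaMKII-MEF2-HDAC targets was 0.9382 with the filter at a mean of 5 FPKM.

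Libraries of the same replicate number deviated together with correlations of 0.081, 0.169 and 0.174, and other pairs with -0.245 to 0.104. Sham 1, Sham 2, Sham 3, TAB 2 and TAB 3 each correlated best with the library of their own number. TAB 1 correlated best with Sham 3 (0.104), and not all correlations of the same number were over 0.1. The numbers were therefore not taken as pairs, though a link between them was not excluded. With the replicate block, in which Sham 4 has no partner, 1892 rows were called, Camk2a and Ppp3cb stayed called (-0.3506 and -0.2523, limma adjusted p = 0.0245 and 0.0295) and Rcan1 did not pass (0.9325, 0.137). Depth limits Nfatc4 most, and with 3 TAB libraries the spread of Rcan1 rests on few values.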

Other observations

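Some pathway genes lay under the filter on low values and were not tested. Camkk1, a kinase that activates CaM kinases I and IV, was 0.419, 0.435, 0.416 and 0.286 FPKM across Sham 1 to 4 and 1.18, 0.653 and 0.911 across TAB 1 to 3, without overlap. Camk4 was between 0.0141 and 0.0552 FPKM in Sham and between 0.0566 and 0.0737 in TAB. Myoz1, the calsarcin of fast skeletal muscle, was between 0.0748 and 0.306 FPKM in Sham and between 0.421 and 0.648 in TAB. The inflammatory NFAT targets Il6, Tnf and Ptgs2 had highest values of 1.57, 0.272 and 0.653 FPKM. These genes were picked after their values were seen.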
